A study of Mus musculus with 9 samples.

Results

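Histone genes were read by 71 probes on the arrays, which gave 67 units among the 23837 units tested. A probe was taken when each of its gene symbols began with H1f, H2ac, H2bc, H2ax, H2az, H2aj, H3c, H3f, H4c, H4f or an older histone name, while symbols starting with H2-, which are MHC genes, were left out. A gene named alone on its probes counted as 1 unit, read by its brightest probe (35 units), and a probe that carries several histone symbols counted as 1 unit of its own (32 units), because such a probe cannot tell near-identical gene copies apart. The units were 51 replication-dependent, 6 replacement, 4 mixed H4, 5 testis and 1 pseudogene unit. These classes follow the symbols, and H4f16 was placed with the replacement genes by its H4f prefix alone. The 4 mixed H4 probes carry its symbol beside those of H4c genes. The cells were splenic dendritic cells (DCs) of C57BL/6 background from naive mice, sorted on CD11c and MHC class II. There were 3 C/EBPβ-/- samples (knockout), from mice in which a Cre under the CD11c promoter (CD11c-Cre-eGFP) acts on a loxP-flanked C/EBPβ gene (C/EBPβflox/flox), and 6 C/EBPβ+/+ samples (control). The controls are described both as CD11c-Cre-eGFP mice and as C57BL/6 mice, without saying which sample came from which. The Cre acts in cells with an active CD11c promoter. Whether each replicate is a separate animal is not said in the labels, and the p-values then describe only how far these samples vary, which may be technical. Samples are called knockout 1 to 3 and control 1 to 6 by their replicate numbers.

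Histones package DNA into nucleosomes, with a core of H2A, H2B, H3 and H4 and a linker histone, H1. The replication-dependent genes lie in clusters of near-identical copies, are transcribed mainly while DNA is copied in S phase, and give messages that end in a stem-loop bound by SLBP and carry no poly(A) tail. Replacement histones come from scattered genes, mostly with polyadenylated messages, and are made throughout the cell cycle. In the spleen most DCs are at rest, and some conventional DCs still divide in place. The RNA was labelled with a whole-transcript kit, whose priming does not depend on a poly(A) tail.

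The promoters of the 4 replication-dependent genes that were read alone and fell in the knockout are shown, to set the sequences of these members beside their values. They come from RefSeq (GRCm38.p6) and run from 250 bases before the annotated start to 50 bases after it, in the direction of transcription. They lie on chromosome 13 at chr13:23738557-23738856 for H1f2 (plus strand), chr13:22035571-22035870 for H2bc12 (plus strand), chr13:23533625-23533924 for H2ac10 (plus strand) and chr13:21750504-21750803 for H4c12 (minus strand). Capitals mark matches, on either strand, to 5 motifs, the octamer ATTTGCAT, the CCAAT box CCAAT, the TATA box TATAAA, the linker histone motif AAACACA and the C/EBP motif TTGCNNAA.
H1f2: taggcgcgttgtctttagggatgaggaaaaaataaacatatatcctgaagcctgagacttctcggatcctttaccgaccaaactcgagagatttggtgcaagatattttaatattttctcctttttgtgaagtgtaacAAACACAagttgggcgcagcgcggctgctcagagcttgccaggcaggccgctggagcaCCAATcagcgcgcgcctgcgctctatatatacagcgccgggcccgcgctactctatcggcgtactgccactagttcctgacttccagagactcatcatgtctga
H2bc12: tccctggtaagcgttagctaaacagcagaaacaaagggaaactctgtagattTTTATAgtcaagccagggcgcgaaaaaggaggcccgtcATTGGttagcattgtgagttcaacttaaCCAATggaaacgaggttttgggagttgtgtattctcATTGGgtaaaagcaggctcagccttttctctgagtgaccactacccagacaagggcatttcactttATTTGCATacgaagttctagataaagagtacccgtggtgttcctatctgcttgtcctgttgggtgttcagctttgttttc
H2ac10: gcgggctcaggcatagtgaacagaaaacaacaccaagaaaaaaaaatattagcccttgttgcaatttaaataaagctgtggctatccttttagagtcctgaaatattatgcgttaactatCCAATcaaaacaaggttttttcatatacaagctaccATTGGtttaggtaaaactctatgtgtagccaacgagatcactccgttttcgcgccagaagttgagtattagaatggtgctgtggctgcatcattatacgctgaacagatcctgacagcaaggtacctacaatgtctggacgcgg
H4c12: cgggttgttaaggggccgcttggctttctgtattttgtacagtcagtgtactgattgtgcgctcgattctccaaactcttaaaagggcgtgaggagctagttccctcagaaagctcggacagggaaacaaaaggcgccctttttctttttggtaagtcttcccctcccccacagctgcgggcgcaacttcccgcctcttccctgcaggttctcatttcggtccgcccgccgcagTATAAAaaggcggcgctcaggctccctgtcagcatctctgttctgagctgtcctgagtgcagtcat
H1f2 held AAACACA at -112 to -106 and CCAAT at -54 to -50 from the start. H2bc12 held the octamer at -30 to -23, 3 CCAAT boxes and a TATAAA on the opposite strand. H2ac10 held 2 CCAAT boxes and H4c12 a TATAAA at -16 to -11, and no match overlapped another in these 4. The C/EBP motif was not in these 4 windows. Of the 71 histone symbols, 64 were matched to a promoter. Among the 54 replication-dependent promoters, CCAAT was in 85.2%, against 37.9% of 27025 promoters of all genes, TATAAA in 59.3% against 14.2%, and the octamer in 18.5% against 1.75%. The octamer was found in 5 of 16 H2A and 5 of 12 H2B promoters and in 0 of the 5 H1, 10 H3 and 11 H4 promoters. Several H2A and H2B windows overlap on opposite strands, as at H2ac12 and H2bc12 or H2ac8 and H2bc8. The same match can then count for both genes, so these promoters are not independent sequences. AAACACA was in 4 of 5 H1 promoters, against 7.14% of all promoters, and the C/EBP motif in 22.2% of replication-dependent promoters, against 10.8% of all. A match is a run of letters and was not tested as a binding site.

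Cebpb, the targeted gene, was low in the 3 knockouts, without overlap with the controls. Its log2 intensity was 5.37, 5.60 and 5.42 in knockouts 1, 2 and 3, against a lowest, median and highest value of 6.64, 6.77 and 7.15 in the controls. The change was -1.35 (SE 0.11, limma adjusted p = 8.4e-04), with an exact two-sided permutation p = 0.012, the smallest that exact enumeration of 84 assignments can give.

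The sorted cells carried DC markers in both groups. Itgax, which encodes CD11c, averaged 12.15 in the knockout and 12.16 in the control, Flt3 averaged 11.56 in the knockout and 11.52 in the control, and H2-Ab1 averaged 13.72 in the knockout and 13.68 in the control. Of 10 DC markers 1 rose, Cd209a (0.54, limma adjusted p = 0.044), and 0 fell, and their mean level ranged from 10.49 to 10.65 in the knockouts and from 10.40 to 10.58 in the controls. Clec10a, the dimmest of the 10 at a mean of 4.86, had a larger change of 0.72 (limma adjusted p = 0.099), with every knockout above every control. Esam had the most negative change, -0.27 (limma adjusted p = 0.44), and 5 of the 10 had a lower mean in the knockout. Over all units 0.445% rose and 0.562% fell by limma. Markers of other cells were uneven, and knockout 3 stood apart by its B cell markers, with Cd79a at 10.21 there and between 7.29 and 8.24 in the controls. The mean level of 11 B cell markers ranged from 7.36 to 8.33 in the knockouts and from 7.47 to 7.67 in the controls, with 0 calls by limma and 2 at an unadjusted p under 0.05, which 14.3% of all units reached. For 4 germinal centre B cell markers it ranged from 6.64 to 6.89 in the knockouts and from 6.70 to 6.89 in the controls, with 0 calls and 2 unadjusted. The 5 plasma cell markers ranged from 8.21 to 8.38 in the knockouts and from 7.63 to 7.92 in the controls, and 1 rose, Jchain, by 1.89. The other changes in that list were 0.54 (Mzb1), 0.25 (Irf4), 0.07 (Sdc1) and 0.04 (Xbp1). The 6 monocyte markers ranged from 9.74 to 10.03 in the knockouts and from 9.39 to 9.70 in the controls, and 1 rose, Adgre4. The 6 red pulp macrophage markers ranged from 9.34 to 9.77 in the knockouts and from 8.43 to 9.57 in the controls, with 0 calls and 3 unadjusted. Lists for T cells, NK cells, neutrophils, plasmacytoid DCs and erythroid cells had 0 calls by limma and 1, 0, 1, 1 and 0 members at an unadjusted p under 0.05. Log2 intensities have no true 0, and the dimmest marker of these lists averaged 3.08. The part of these cells in the histone results was not tested. With knockout 3 left out, 1 replication-dependent and 0 replacement histone units passed and the replication-dependent median was -0.33.

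Replication-dependent histone units were lower in knockout DCs. Of the 51, 8 fell and 0 rose by limma (adjusted p under 0.05 over all 23837 units), where 1.01% of all units passed, 0.562% lower and 0.445% higher in the knockout. A second quantile normalization moved the calls over all units to 160 higher and 132 lower, against 106 and 134, and left 8 replication-dependent units lower and 0 higher. At an unadjusted p under 0.05 there were 30 of the 51, all lower, where 14.3% of all units were at such a p and 8.86% were lower. The median change of the 51 was -0.36 on the log2 scale, against -0.01 for all units, and 46 of the 51 had a lower mean in the knockout, against 55.1% of all units. Every knockout sample lay below every control in 18 of the 51 units, against 4.9% of all units, and above every control in 0, against 2.5%. A further 8 units had an adjusted p between 0.05 and 0.10, all lower in the knockout, and 2 of them lay at or below the median level of all units. At an adjusted p under 0.10 there were thus 16 of the 51 lower, against 385 of all 23837 units. In bulk RNA of sorted cells, fewer cells of a kind and less RNA per cell cannot be told apart. Many of these units share gene copies and so do not stand for independent genes.

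The count of 8 depended on which samples were kept, while the median moved little. Leaving out control 1, 3, 4 or 5, or knockout 2 or 3, left 1 unit past the threshold. Leaving out control 2 or control 6 left 4, and leaving out knockout 1 left 6. The median change stayed between -0.40 and -0.33 in those 9 fits. H1f2 kept an adjusted p under 0.05 in 9 of the 9 fits, and the other 7 units missed it in at least 7.

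H1f2 encodes the linker histone H1.2. Its log2 intensity was 9.16, 9.18 and 9.24 in the knockouts, against a lowest, median and highest value of 9.58, 9.69 and 9.75 in the controls. The knockouts spanned a narrow range well apart from the controls. The mean was 9.19 ± 0.04 (SD, n = 3) in the knockout and 9.67 ± 0.07 (SD, n = 6) in the control, a change of -0.48 (SE 0.06, limma adjusted p = 0.0072), or 1.39-fold. H1f2 is the unit of this group with the smallest p.

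H2bc12, a gene for the core histone H2B, had the largest change of the replication-dependent units. It was at 8.65, 8.33 and 7.95 in knockouts 1, 2 and 3, against 8.93, 9.16 and 9.49 (lowest, median and highest) in the controls. The groups did not overlap, and knockout 3 was the lowest. The mean was 8.31 ± 0.35 (SD, n = 3) in the knockout and 9.15 ± 0.20 (SD, n = 6) in the control, a change of -0.84 (SE 0.15, limma adjusted p = 0.036), or 1.79-fold. With knockout 3 left out the change was -0.66 (limma adjusted p = 0.076).

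H2ac10, a gene for the core histone H2A, was at 11.39, 11.40 and 11.09 in the knockouts, against 11.68, 11.71 and 11.90 (lowest, median and highest) in the controls. Each knockout sample was below the lowest control, and knockout 3 was again the lowest. The change was -0.47 (SE 0.08, limma adjusted p = 0.038). H4c12, a gene for the core histone H4, was at 11.86, 11.80 and 11.87 in the knockouts and at 12.04, 12.18 and 12.29 (lowest, median and highest) in the controls. Its 3 knockout values lay closer together than those of H2ac10. Its change was -0.33 (SE 0.06, limma adjusted p = 0.045), or 1.26-fold.

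The other 4 units that fell were bright probes shared by several gene copies. The H2A probe 17291012, shared by 10 H2ac genes, was at 11.53, 11.54 and 11.45 in the knockouts, against 11.76, 11.92 and 12.03 (lowest, median and highest) in the controls, a change of -0.41 (SE 0.07, limma adjusted p = 0.035). The H2B probe 17290997, shared by 4 H2bc genes, was at 12.31, 12.23 and 12.14 in the knockouts, against 12.45, 12.64 and 12.73 in the controls, a change of -0.39 (SE 0.07, limma adjusted p = 0.039). In both probes the groups did not overlap. The H2A probe 17285703, shared by 12 H2ac genes, was at 12.11, 11.98 and 11.91 in the knockouts, against 12.26, 12.35 and 12.41 in the controls, a change of -0.34 (SE 0.06, limma adjusted p = 0.044). The H2A probe 17400545, shared by H2ac18, H2ac19 and H2ac20, was at 12.00, 11.99 and 12.09 in the knockouts, against 12.23, 12.41 and 12.48 in the controls, a change of -0.35 (SE 0.07, limma adjusted p = 0.047). In these probes too, each knockout lay below the lowest control. Both are present a second time on the array with the same values and were counted here as 1 unit each.

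**Figure D1:**
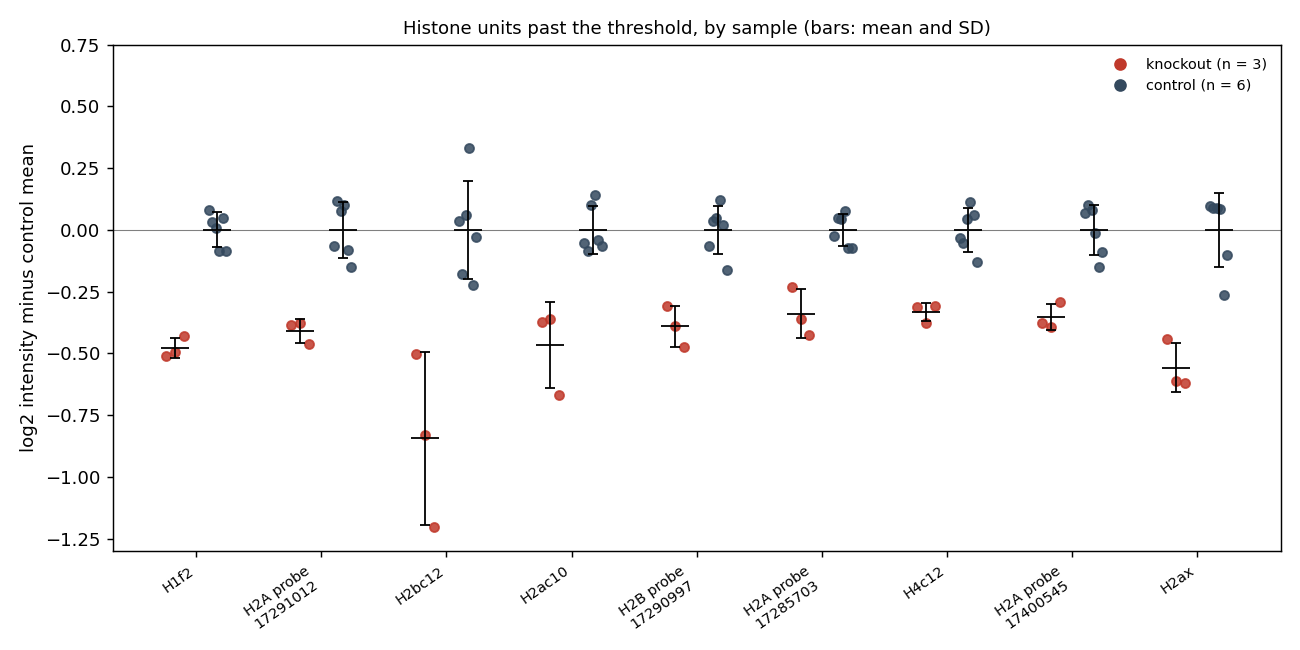
Log2 intensity minus the control mean (y axis) in each of 3 knockout and 6 control samples, for the 8 replication-dependent units and for H2ax (x axis), with bars for the mean and SD. No knockout point reaches a control point in these 9 units, and H2bc12 has the widest spread among knockouts.

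The linker histone H1 units had the most negative median change of the 5 families, -0.61 over 4 units, although only H1f2 fell. The family medians were -0.39 over 14 H2A units, -0.36 over 12 H2B units, -0.35 over 12 H3 units and -0.34 over 8 H4 units. The families were not tested against each other. By limma 4 of the 14 H2A units fell, as did 2 of 12 H2B, 1 of 8 H4 and 0 of 12 H3 units. Among H3 units 5 of 12 had an unadjusted p under 0.05, all with a lower mean in the knockout. They include the dim probes 17285821 and 17291008, with mean levels of 3.15 and 3.80, against a median of 5.93 for all units. The remaining unit, the probe 17291195 shared by H1f4 and 3 H2bc genes, had a change of -0.26 (limma adjusted p = 0.20).

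The 6 members with the largest changes among those that missed the threshold had standard errors between 0.14 and 0.35, against 0.06 to 0.15 in the 8 that fell. H1f1, a gene for the linker histone H1.1, was at 5.87, 6.20 and 5.78 in the knockouts, against 6.23, 6.80 and 7.16 (lowest, median and highest) in the controls. The groups did not overlap, but the control SD was 0.35, and the change of -0.81 (SE 0.19) had a limma adjusted p = 0.0755. H1f5, a gene for H1.5, was at 8.19, 8.42 and 7.40 in the knockouts, against 8.35, 8.74 and 9.08 in the controls. There knockout 2 overlapped the controls, and the change of -0.73 (SE 0.21, limma adjusted p = 0.14) was -0.43 with knockout 3 left out.

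The H2A probe 17291057, shared by 10 genes, behaved likewise. It was at 7.49, 7.15 and 6.14 in the knockouts, against 7.45, 7.65 and 8.11 (lowest, median and highest) in the controls, and its change of -0.78 (SE 0.25, limma adjusted p = 0.17) was -0.39 with knockout 3 left out. The H2A probe 17285867, shared by the same 10 genes, was at 10.67, 10.69 and 10.02 in the knockouts, against 10.97, 11.02 and 11.32 in the controls. Its groups did not overlap, and its change of -0.60 (limma adjusted p = 0.077) was -0.38 with knockout 3 left out. Probes with the same gene symbols thus gave different values, and which copy each one reads was not resolved.

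The H3 probe 17291183, shared by 8 H3c genes, was at 8.06, 7.64 and 7.88 in the knockouts, against 8.09, 8.50 and 8.91 (lowest, median and highest) in the controls. The groups were apart by a small margin, and the change was -0.63 (SE 0.16, limma adjusted p = 0.099). The H3 probe 17291222, with the same 8 symbols, had a change of -0.59 (SE 0.35, limma adjusted p = 0.50) and controls between 4.50 and 6.50. The H3 probe nearest to the threshold, 17400555, was at 7.81, 7.82 and 7.65 in the knockouts and at 7.96, 8.08 and 8.20 (lowest, median and highest) in the controls, with a change of -0.33 (SE 0.07, limma adjusted p = 0.052). In each of these 3 H3 probes the knockout mean was the lower, and none passed.

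A small number of replication-dependent units had a knockout mean at or above that of the controls. They were H4c8 (0.14), H2ac12 (0.10), the H2B probe 17285851 (0.08) and the H3 probes 17285871 (0.03) and 17400559 (0.01), with limma adjusted p-values between 0.66 and 0.99. Of these 5, the H2B probe was the only one with a mean level above the median of all units. Its relative 17285834, with the same 3 symbols (H2bc4, H2bc6 and H2bc8), had a change of -0.34 (SE 0.10, limma adjusted p = 0.16).

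**Figure D2:**
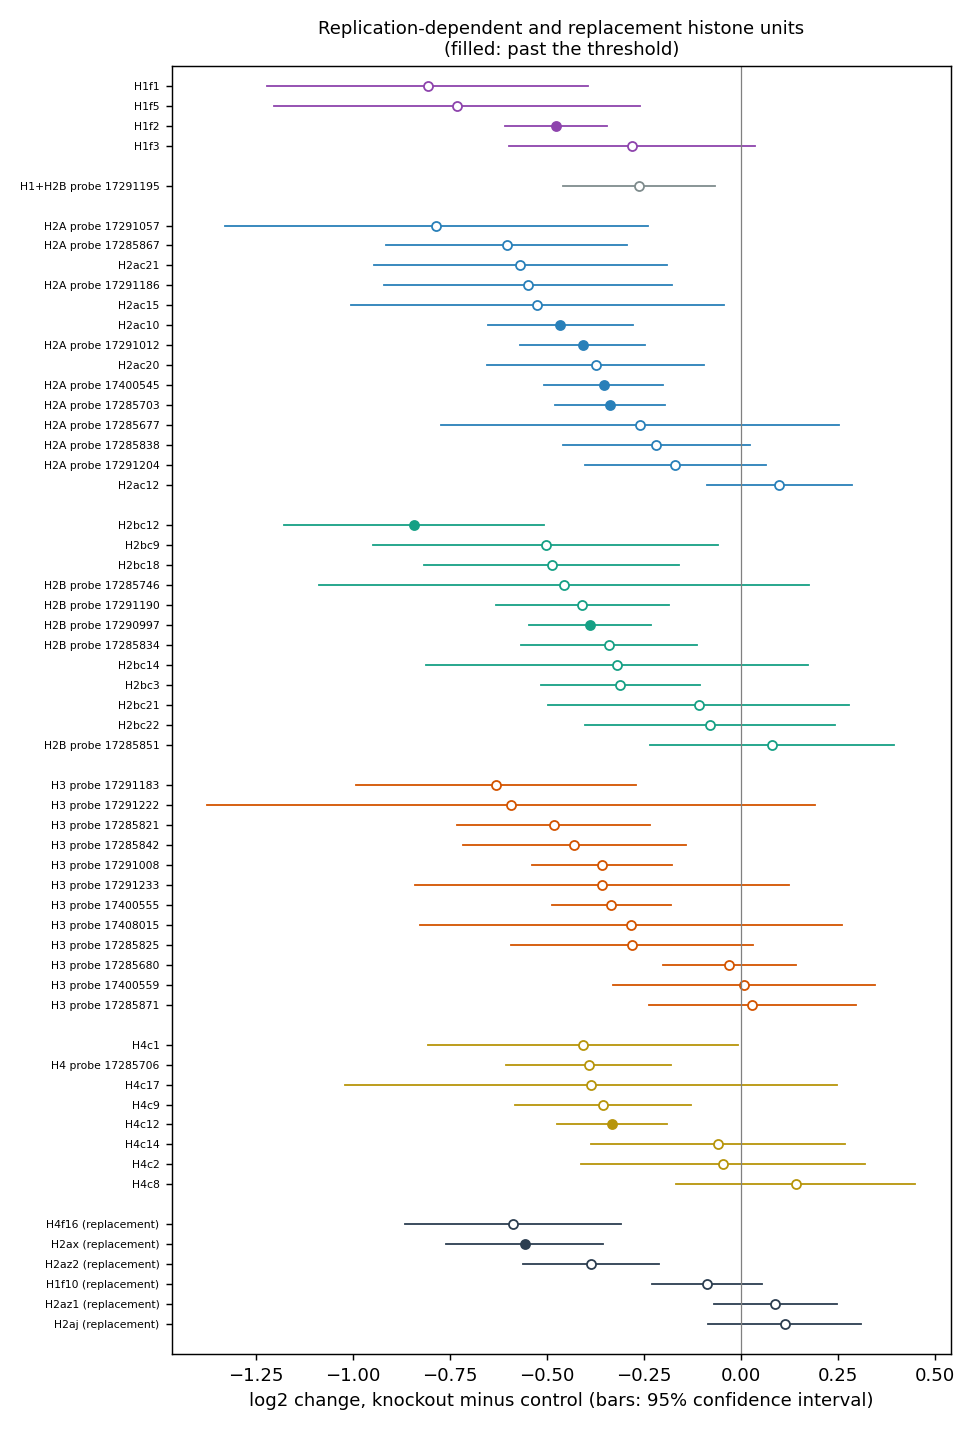
Log2 change, knockout minus control, with 95% confidence intervals (x axis) for the 51 replication-dependent units by family and the 6 replacement units (y axis), filled where past the threshold. The points lie left of 0 for 46 of the 51 replication-dependent units and for 4 of the 6 replacement units.

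The calls were found among the brighter units, as were 130 of the 134 lower calls over all units. Of the 36 replication-dependent units whose mean lay above the median of all units (5.93), 8 fell, 35 had a lower mean in the knockout and 16 had every knockout sample below every control, where of all units above that level 1.09% fell, 64.1% had a lower mean and 8.84% did not overlap in that direction. Of the 15 dimmer units 0 fell, where 0.0336% of all units at or below that level fell. In the 15, 4 had an unadjusted p under 0.05, all lower, against 2.37% of all such units. The medians of the brighter and dimmer units were -0.37 and -0.32, and the control SD had a median of 0.18 in the brighter and 0.28 in the dimmer units. Of the 8 units with a mean of 10 or more, 6 fell, with changes of all 8 between -0.60 and -0.33, whereas 1.31% of all units that bright fell. These levels were chosen after the values were seen.

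**Figure D3:**
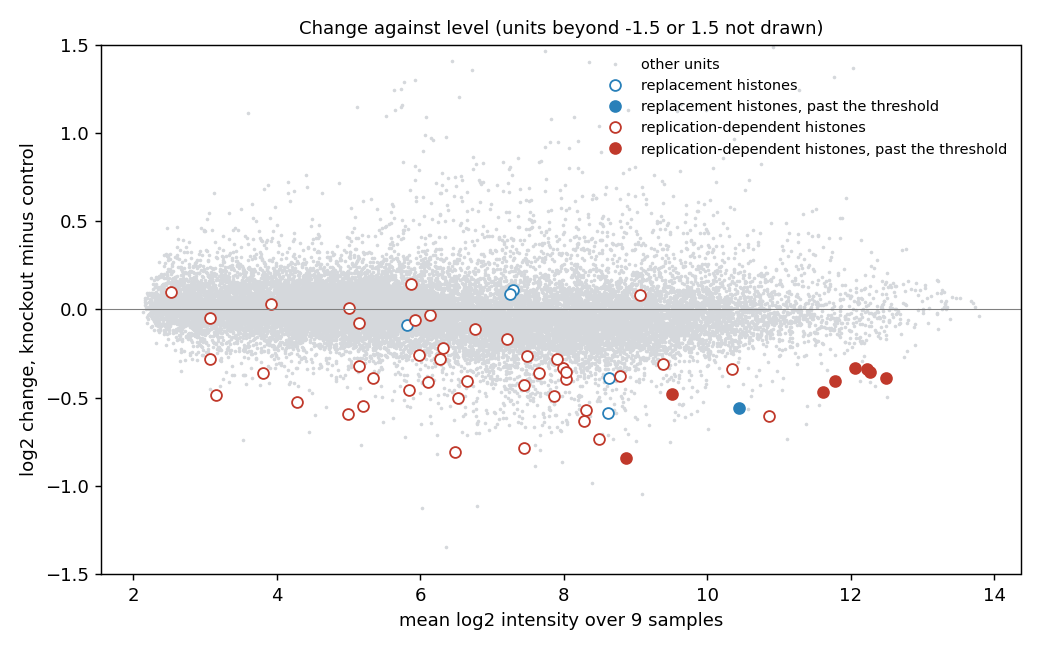
Log2 change, knockout minus control (y axis), against mean log2 intensity over the 9 samples (x axis), for replication-dependent and replacement histones over all other units. Filled points are past the threshold, and 6 of the 8 replication-dependent units at 10 or more are filled.

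By location, 37 of the replication-dependent units carry symbols of chromosome 13 genes, where the large mouse histone cluster lies, and 7 of them fell, with a median change of -0.36. The 6 units of the smaller cluster on chromosome 3 had a median of -0.36 as well, and 1 of them fell. The 8 units with symbols on both chromosomes were H3 probes, with a median of -0.31, 0 calls by limma and 3 at an unadjusted p under 0.05. Units named by 1 gene (23, of which 4 fell, median -0.37) and probes shared by several genes (28, of which 4 fell, median -0.36) gave like values. A second, dimmer H2ac21 probe had a change of -0.17 beside -0.57 for the brighter one.

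Of the 6 genes classed by symbol as replacement histones, H2ax fell, H2az2 and H4f16 had lower values that missed the threshold, and 3 had changes near 0. Whether H4f16 acts as a replacement gene was not tested. H2ax encodes H2A.X, which is phosphorylated around DNA breaks, and its gene is known also to give a stem-loop message in dividing cells. It was at 10.18, 10.01 and 10.00 in the knockouts, against 10.36, 10.71 and 10.72 (lowest, median and highest) in the controls. The groups did not overlap. The mean was 10.07 ± 0.10 (SD, n = 3) in the knockout and 10.62 ± 0.15 (SD, n = 6) in the control, a change of -0.56 (SE 0.09, limma adjusted p = 0.026), or 1.47-fold. H2ax was the only 1 of the 6 that passed, and it missed the threshold when control 1, 3 or 4 or knockout 2 or 3 was left out (limma adjusted p between 0.054 and 0.12).

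H4f16 and H2az2 lay close to the threshold. H4f16, an H4 gene outside the main clusters, was at 8.33, 8.23 and 8.13 in the knockouts, against 8.63, 8.73 and 9.25 (lowest, median and highest) in the controls, a change of -0.59 (SE 0.13, limma adjusted p = 0.057). A second, dimmer H4f16 probe had a change of -0.24 (SE 0.11, limma adjusted p = 0.39), with groups that overlapped. H2az2, which encodes a form of H2A.Z, the variant found around transcription starts, was at 8.43, 8.34 and 8.36 in the knockouts, against 8.62, 8.73 and 8.94 in the controls, a change of -0.39 (SE 0.08, limma adjusted p = 0.0504). On the brighter H4f16 probe and on H2az2 every knockout sample lay below every control.

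The other 3 replacement genes gave changes near 0. H2az1, which encodes the other form of H2A.Z, was at 7.21, 7.42 and 7.30 in the knockouts, against 7.09, 7.24 and 7.31 (lowest, median and highest) in the controls, a change of 0.09 (95% confidence interval -0.07 to 0.25, limma adjusted p = 0.64). H2aj had a change of 0.11 (95% confidence interval -0.08 to 0.31) and H1f10, a linker histone gene, of -0.09 (95% confidence interval -0.23 to 0.05). In all 3 the groups overlapped. The median over the 6 genes, with H4f16 among them, was -0.24. H4f16 had the most negative change of the 6 (-0.59). With H4f16 set aside, the middle value was that of H1f10, -0.09. Replication-dependent and replacement units were not tested against each other.

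Probes for H3f3a and H3f3b, which encode the replacement histone H3.3, also carry predicted gene symbols and so are not members. Their 7 units had changes between -0.09 and 0.06, with limma adjusted p-values between 0.59 and 0.83. The 5 testis units (H1f6, H1f7, H1f8, H2ac1 and H2bc1) had changes between -0.11 and 0.12, with 0 calls and 0 unadjusted p under 0.05. The pseudogene H2af-ps2 had a change of 0.40 (limma adjusted p = 0.37). The 4 mixed H4 probes, each shared by 13 symbols including H4f16, ranged from -0.42 to 0.13 with 0 calls by limma and 2 at an unadjusted p under 0.05.

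Across samples, the 3 knockouts differed in the size of the decrease. The median of the replication-dependent units after subtracting each unit's control mean was -0.26, -0.37 and -0.43 in knockouts 1, 2 and 3, while the controls spanned -0.12 to 0.11. Knockout 3 was the lowest knockout in 23 of the 51 units, knockout 2 in 21 and knockout 1 in 7. Among controls, control 3 was the highest in 20 units and control 4 in 18. The medians of the 6 replacement genes were -0.22, -0.30 and -0.19 in knockouts 1, 2 and 3, while the controls spanned -0.06 to 0.11. Here knockout 2 and not knockout 3 was the lowest. H4f16 was among these 6, and H2az1, H2aj and H1f10 had groups that overlapped.

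Genes of S phase and mitosis were lower in the knockout as well. Of 40 S phase genes measured, 9 fell and 0 rose, with a median change of -0.53, and of 15 mitosis genes 4 fell and 0 rose, with a median of -0.55. By limma 0.562% of all units fell, and 1.09% of those above the median level, where all members of both lists lay. The S phase genes with the smallest p were Pole2 (-0.59, limma adjusted p = 0.0097), a subunit of DNA polymerase epsilon, and Timeless (-0.80, limma adjusted p = 0.026), part of the replication fork protection complex. Rfc5 of the clamp loader (-0.59), the checkpoint adaptor Clspn (-0.65), Pole (-0.64) and Gins2 of the replicative helicase (-0.52) also fell. The 4 mitosis genes were Ube2c (-0.56), Ccna2 (-0.59), Plk1 (-0.61) and Aurkb (-0.52). The S phase median was -0.25, -0.41 and -0.82 in knockouts 1, 2 and 3 and lay between -0.12 and 0.07 in the controls. The corresponding mitosis medians were -0.32, -0.53 and -0.82 in the knockouts, against -0.14 to 0.17 in the controls. The part of these genes in the histone result was not tested. Their counts ranged from 0 to 22 for S phase and from 1 to 13 for mitosis when 1 sample was left out. Both were highest with knockout 1 left out and lowest with knockout 2 left out, and with knockout 3 left out they were 3 and 2.

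Chaperones that carry new histones to the replication fork were lower in part. Of 16 measured, 2 fell and 0 rose, with a median of -0.30 and a lower mean in the knockout in 16 of 16. Of all units above the median level, where these 16 lay, 1.09% fell and 64.1% had a lower mean. Asf1b, which hands H3 and H4 to the assembly factors, was at 8.64, 8.40 and 8.14 in the knockouts, against 8.91, 9.08 and 9.25 (lowest, median and highest) in the controls, a change of -0.68 (SE 0.11, limma adjusted p = 0.025). Rbbp7, a histone-binding subunit of several chromatin complexes, was at 10.80, 10.82 and 10.61 in the knockouts, against 10.96, 11.09 and 11.20 in the controls, a change of -0.35 (SE 0.07, limma adjusted p = 0.0497). In both genes the groups did not overlap. The count of 2 became 0 when control 1, 3, 4 or 6 or knockout 2 was left out, and 1 when control 5 or knockout 3 was.

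Genes for making the histone message showed 0 calls by limma among 16 measured, and a median change of -0.08. At an unadjusted p under 0.05 there were 4, all lower. Of all units 14.3% had such a p, and 22.2% of those above the median level, where 15 of the 16 lay. A lower knockout mean was seen in 14 of the 16, against 64.1% of all units above that level. Every knockout sample lay below every control in 3 of the 16, against 8.84%. The smallest p-values were those of Ccne1 (-0.35, limma adjusted p = 0.11), the cyclin E1 gene, and Cdk2 (-0.24, limma adjusted p = 0.16), its kinase, which together activate the histone gene coactivator NPAT. Of 10 chaperones and loaders of replacement histones 0 passed by limma, with 1 at an unadjusted p under 0.05, and a median of -0.07. A lower knockout mean was seen in 8 of the 10, against 64.1% of all units above the median level. Their median by sample lay between -0.09 and -0.05 in the knockouts and between -0.04 and 0.07 in the controls. Ep400, an ATPase that loads H2A.Z, had a change of -0.46 (limma adjusted p = 0.21) and Anp32e, which removes it, of -0.34 (limma adjusted p = 0.37). Among 4 variant histones outside the rule 0 passed and 0 had an unadjusted p under 0.05, including Macroh2a1 (-0.07) and Macroh2a2 (-0.20).

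**Figure D4:**
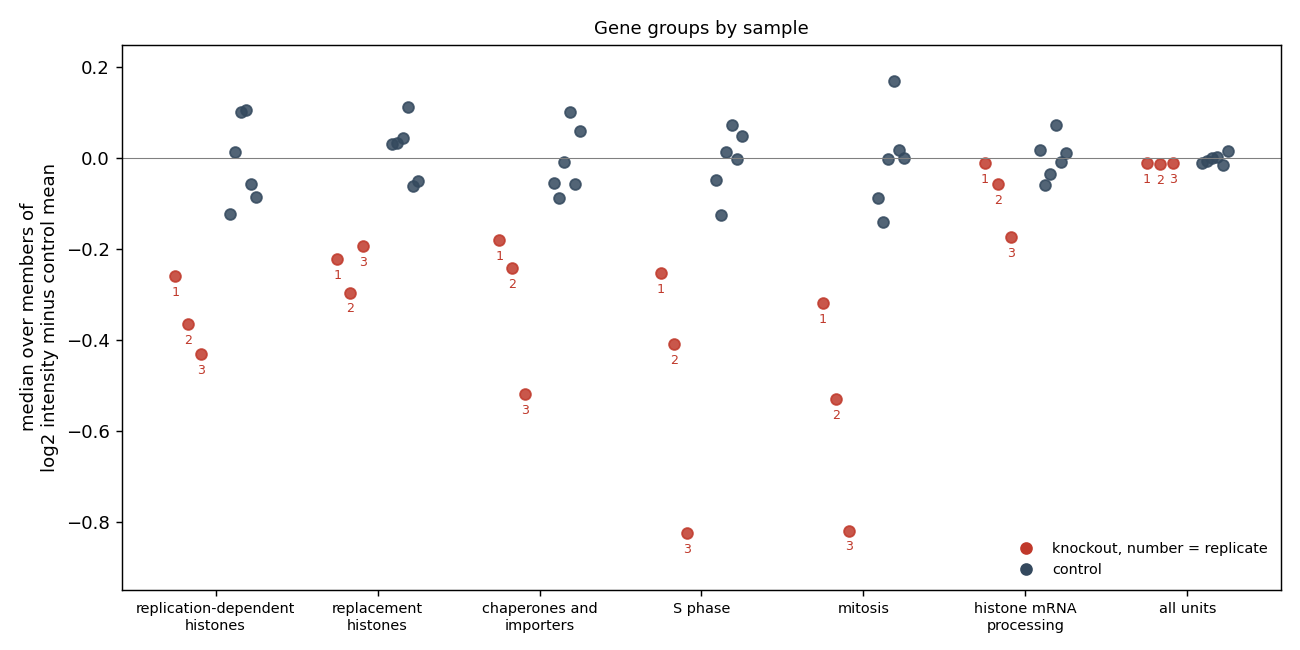
Median over a gene group of log2 intensity minus the control mean (y axis) in each knockout sample, numbered by replicate, and each control sample, for 7 groups (x axis). The medians of replication-dependent histones, replacement histones, chaperones, S phase and mitosis genes lie below the controls in every knockout sample. The replacement group includes H4f16, and its members H2az1, H2aj and H1f10 overlapped the controls. The medians of the histone mRNA processing genes overlap, and the median of all units stays near 0.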

How the data were processed

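The authors deposited 1 log2 intensity per probe, where a probe stands for a transcript cluster, and the submitters' processing notes name RMA. Its version and settings and the genome build were not given in the sources used here. Quantile normalization in RMA makes the arrays alike in distribution and would remove a shift of most genes. Array medians lay between 5.49 and 5.56, and array pairs correlated at 0.987 to 0.996. Precision is limited by the number of arrays.

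Of 41801 rows, 34468 probes had a value in all 9 samples. The platform annotation gave 1 symbol to 23525, several to 1810 and none to 9133, which were left out. A gene alone on several probes was read by its brightest (22184 genes). Each probe with several symbols was kept as a unit, and those with the same symbols and identical values were counted as 1, which gave 1653 units. The planned text could be read as 1 unit for each set of symbols, and that reading was run as an alternative. Units were compared with limma 3.58.1 in R 4.3.3 (lmFit and eBayes, two-sided, no covariate), with Benjamini-Hochberg adjustment over all 23837 units and a threshold of 0.05. Changes are knockout minus control with limma's SE. The members and lists were chosen with earlier results of these data known. Named were Cebpb, the replication-dependent units past the threshold, the 6 others with the largest change, all replacement units, the list members past the threshold (at most 6 a list) or else the 2 with the smallest p. Other units named were chosen after their values were seen.

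On simulated data with 23837 units, the fit recovered 59.7% of 67 units changed by 0.5, 91.0% of 67 changed by 1 and 66 of 66 changed by 2, with 11 false calls. The changed units were drawn at random from all units, whose median control SD was 0.12, against 0.21 in the replication-dependent units. Recovery was not estimated for those units, and no change as small as their median of -0.36 was simulated. Alternatives changed the normalization, the variance model, the array weights (statmod 1.5.0), the samples, the filter and the units, and added the replicate number as a block. Figures used Python 3.11.15 and matplotlib 3.10.9.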

Additional observations from a re-analysis of the deposited data

Results flagged for a closer look

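In 8 of 95 results with 6 control values, 1 control lay farther from the others than Dixon's 95% critical ratio of 0.625 allows, where chance gives about 1 in 20. In 3 histone units the odd sample was control replicate 3, which was high. The H2B probe 17285746 (ratio 0.710) was at 7.06 there, against 5.47 to 5.93 in the other controls. H4c8 (ratio 0.662) was at 6.10 against 5.73 to 5.85. The H3 probe 17291222 (ratio 0.661) was at 6.50 against 4.50 to 5.18. Control replicate 4 was high in the H2A probe 17285867 (ratio 0.727), at 11.32 against 10.97 to 11.06, and in Ccna2 (ratio 0.625), at 9.50 against 9.25 to 9.34. Control replicate 1 was low in H2ac12 (ratio 0.657), at 2.22 against 2.48 to 2.62, and in the H3 probe 17408015 (ratio 0.631), at 5.65 against 6.31 to 6.69. Control replicate 6 was low in the H2B probe 17285851 (ratio 0.659), at 8.61 against 9.03 to 9.25. The cause was not tested for any of them, and of these units only Ccna2 was past the threshold between the groups.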

How the results depend on the processing

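Cebpb, the 8 replication-dependent units that fell, the 6 others with the largest change and the 6 replacement units kept their sign. Signs were not followed for other units named here. By contrast, the balance of all calls changed. It was 106 higher and 134 lower, and higher calls outnumbered lower ones with the second quantile normalization (160 and 132), against controls 4 to 6 alone (16 and 5) and in 8 of the 9 fits that left out 1 sample, such as without knockout 2 (28 and 11), knockout 3 (145 and 55) or control 1 (55 and 46). Without knockout 1 there were 90 higher and 270 lower. The median of the replication-dependent units lay between -0.37 and -0.33 under every alternative other than leaving out 1 sample, where it lay between -0.40 and -0.33. The cause of the changes below was not tested, except that fewer samples or units were fitted where so named. Against control replicates 1 to 3 alone 3 units passed, and against control replicates 4 to 6 alone 21, with 0 replication-dependent, 0 replacement, 0 chaperone, 0 S phase and 0 mitosis units in both by limma. At an unadjusted p under 0.05 there were 24 and 29 replication-dependent units in those fits, all lower in the knockout. The share of all units at such a p was not computed for those fits, so these counts have no background beside them. With the replicate block 2 units passed, the same 5 groups had 0 by limma, and Cebpb had a change of -1.47 (limma adjusted p = 0.17). There were 26 replication-dependent units at an unadjusted p under 0.05, all lower, again without a computed share of all units. The labels do not say whether equal numbers pair the samples. Deviations of knockout and control correlated at -0.145, -0.105 and 0.047 within numbers 1, 2 and 3, which cannot exclude a pairing. With array weights 711 units passed, of which 15 were replication-dependent, 3 replacement, 23 S phase and 8 mitosis genes. With units above the median level alone, 590 passed (226 higher, 364 lower), of which 14 were replication-dependent, 3 replacement, 4 chaperone, 28 S phase and 8 mitosis genes, and the replacement median was -0.39, since H1f10 drops out. With probes of 1 symbol alone 4 replication-dependent units passed. The chaperone count was 1 with those probes, with each array centred on its median and with every named probe. The replacement count was 2 with trend and robust fitting. With 1 probe for each symbol set, added after seeing the data, 8 replication-dependent units passed again.

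When 1 sample was left out, the counts ranged from 39 to 360 for all units, 1 to 6 for replication-dependent, 0 to 1 for replacement, 0 to 3 for chaperones, 0 to 22 for S phase and 1 to 13 for mitosis. The replacement median ranged from -0.26 to -0.21 and Cebpb from -1.41 to -1.28. The 2 lists of message processing and replacement chaperones, and the variant histones, had 0 in each of those fits. Of the 9 histone units called, 9 remained past the threshold with array weights, the second quantile normalization, and trend and robust fitting, and 8 with centring. Of the replication-dependent units 15 lie at or below the median level, and 0 of them passed, where 0.0336% of all units at that level were called lower.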
